A study of Mus musculus with 2 samples.

Results

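The cardiac and skeletal muscle microRNAs (miRNAs) are 10 mature strands, mmu-miR-1a-3p, mmu-miR-133a-3p, mmu-miR-133a-5p, mmu-miR-133b-3p, mmu-miR-133b-5p, mmu-miR-206-3p, mmu-miR-208a-3p, mmu-miR-208a-5p, mmu-miR-208b-3p and mmu-miR-499-5p, written here without the mouse prefix mmu. They were chosen by name among the 1141 mouse miRNA probes of the array, and all 10 had a probe with 3 repeat spots. Lung RNA of wild-type mice, either untreated or given monocrotaline (MCT), a plant toxin used in rodents to damage the pulmonary vasculature and bring on pulmonary arterial hypertension, was hybridised to 1 single-colour array per group, to ask which miRNAs differ in the treated lung. The MCT mice were 14 weeks old and were treated for 30 days. The age of the untreated mice, and whether a sample held the lungs of 1 mouse or of several, are not given in the sources used here. With 1 array per group there is no replicate check and no test, so every difference below is a difference between these 2 libraries. Values after ± are standard deviations (SD) over the 3 spots of an array, or their root sum of squares for a ratio, and cover the spread within an array only.

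A miRNA hairpin is cut into a duplex of a 5p and a 3p strand. Usually 1 strand, the guide, is loaded into Argonaute and binds messenger RNAs through its seed, bases 2 to 8, while the other strand is mostly degraded. miR-1 and miR-133 strands are made together from shared transcripts in heart and skeletal muscle, where miR-1 promotes differentiation and miR-133 restrains serum response factor. miR-206 and miR-133b form the related skeletal muscle pair, and miR-208a, miR-208b and miR-499 sit in introns of the myosin heavy chain genes Myh6, Myh7 and Myh7b. In the mouse, heart muscle extends along the pulmonary veins into the lung, so strands of this group can be present in whole lung.

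The sequences show which members a probe could confuse and which arms belong to the same hairpin. Whether the targets of miR-1a-3p and the miR-133a strands match the RefSeq miRNA table is not shown here. For 7 of the 10 members the array's target had a single exact match in that table, outside a chromosome that was left out. These 7 are given 5′ to 3′ with the seed in capitals.
miR-206-3p: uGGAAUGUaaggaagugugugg
miR-133b-5p: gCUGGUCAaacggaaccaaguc
miR-133b-3p: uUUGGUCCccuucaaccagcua
miR-208a-5p: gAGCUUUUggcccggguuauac
miR-208a-3p: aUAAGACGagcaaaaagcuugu
miR-208b-3p: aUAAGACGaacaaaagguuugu
miR-499-5p: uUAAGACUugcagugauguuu

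On GRCm38.p6, the build of the RefSeq table, miR-206-3p lies at chr1:20679055-20679076, and the arms of miR-133b at chr1:20682797-20682818 (5p) and chr1:20682834-20682855 (3p), all on the plus strand and within the span of the long non-coding RNA gene Lincmd1. The distance from miR-206-3p to miR-133b-5p is 3.72 kb. The arms of miR-208a lie at chr14:54949107-54949128 (5p) and chr14:54949072-54949093 (3p) on the minus strand within Myh6, and miR-208b-3p at chr14:54975710-54975731 on the minus strand within Myh7. miR-499-5p lies at chr2:155622893-155622913 on the plus strand within Myh7b. Among the array's targets, miR-208a-3p and miR-208b-3p shared a seed and 19 of 22 positions, and miR-499-5p had 6 of the 7 seed bases of miR-208a-3p. miR-1a-3p and miR-206-3p shared a seed and 18 of 22 positions. miR-133a-3p and miR-133b-3p shared a seed and 21 of 22 positions, so probes for these strands may read each other's target.

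The values are scanner intensities of single spots in arbitrary units, with no background removed. A miRNA was taken as detected on an array when at least 2 of its 3 spots exceeded the 95th percentile of the 257 empty spots, an intensity of 116 for untreated and 284 for MCT. The MCT array was the brighter: its empty spots had a median of 253 against 101, and the median miRNA spot was 226 against 105. The median empty spot was thus above the median miRNA spot on the MCT array and below it on the untreated array. Relative to the miRNA spots the limit is therefore stricter for MCT, and numbers detected cannot be compared between the libraries. By this rule 403 miRNAs were detected in untreated and 316 in MCT lung, 409 in either. Markers of lung cell types were present, with all 6 epithelial and all 5 endothelial miRNAs of short lists detected on at least 1 array. The epithelial miR-141-3p was not detected in untreated lung, and miR-126-5p of the endothelial list was not detected in MCT lung.

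Of the 10 muscle miRNAs, 6 were detected on both arrays and 4 on neither. The detected strands were miR-1a-3p, miR-133a-3p, miR-133b-3p, miR-133b-5p, miR-206-3p and miR-208a-5p, each with 3 of 3 spots over the limit on both arrays. Those not detected were miR-133a-5p, miR-208a-3p, miR-208b-3p and miR-499-5p. Their 12 spots ran from 78.9 to 97.3 on the untreated array and from 183 to 217 on the MCT array, below the limit on each. The guide strands of the 3 myosin hairpins, miR-208a-3p, miR-208b-3p and miR-499-5p, were therefore not above background in either library. The share of G and C bases (GC content) was between 31.8% and 38.1% in the 4 strands not detected. It was 27.3% in miR-1a-3p and between 45.5% and 54.5% in the other detected strands. Whether detection depended on GC content was not tested. The arm of a myosin hairpin whose probe was detected is miR-208a-5p.

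**Figure D1:**
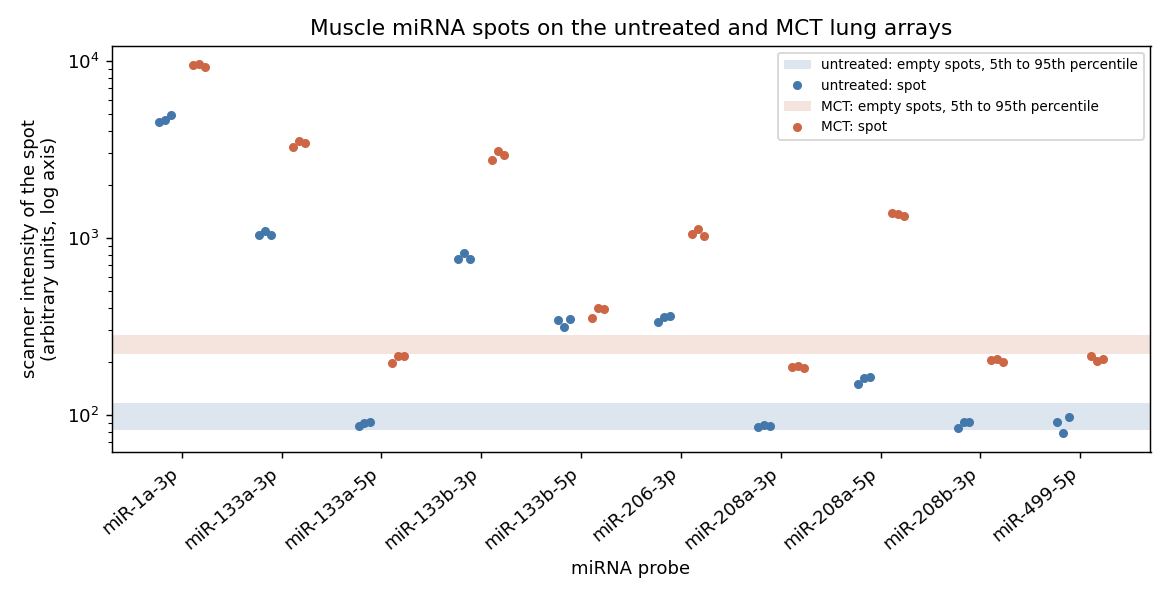
Scanner intensity (arbitrary units, log axis) of each repeat spot of the 10 muscle miRNA probes on the untreated (blue) and MCT (orange) lung arrays; the bands span the 5th to 95th percentile of each array's empty spots. The spots of 6 miRNAs lie above the band of their own array on both arrays, and those of miR-133a-5p, miR-208a-3p, miR-208b-3p and miR-499-5p lie in or under it.

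To compare the arrays, intensities were background-corrected, put on the log2 scale and quantile normalized, so that each log2 ratio (MCT over untreated) is relative to the other miRNAs. A miRNA was called higher or lower when the ratio was at least 2-fold and the spots of the arrays did not overlap. Of the 409 detected miRNAs, 17 (4.16%) were called higher and 9 (2.20%) lower, and the median log2 ratio was -0.044. Among the 6 detected muscle miRNAs, 1 was called higher (miR-208a-5p), 1 lower (miR-133b-5p) and 4 neither. Their median log2 ratio was 0.38, with a range from -1.33 to 2.14. The ratio was above 0 in 4 of the 6, and in 43.8% of all detected miRNAs. At a threshold of 1.5-fold, passed by 46 (11.2%) higher and 44 (10.8%) lower miRNAs, 3 members were higher, miR-208a-5p, miR-133b-3p and miR-133a-3p, and miR-133b-5p stayed the 1 lower. The split of calls depended on the scaling between arrays, with 142 higher and 0 lower miRNAs when the arrays were not normalized and 6 higher and 132 lower when they were centred on the median of miRNAs detected on both. A change in the number of cells of a type cannot be told apart from a change of RNA per cell in whole lung.

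miR-1a-3p, the muscle guide strand that represses Hdac4, had spots of 4529, 4639.9 and 4921 in untreated and 9513, 9560.3 and 9233 in MCT lung. The raw spots were higher on the brighter MCT array without overlap. After normalization the log2 level was 12.74 ± 0.070 in untreated and 12.65 ± 0.031 in MCT lung, with overlapping spots. The log2 ratio was -0.086 ± 0.076. Its sign depended on the processing, from -0.55 with the trend of the ratio on GC content removed to 0.99 without normalization, and it stayed short of 2-fold in all 17 settings.

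miR-206-3p, the skeletal muscle relative of miR-1, had spots of 336, 359 and 362 in untreated and 1054, 1125 and 1024 in MCT lung. The normalized log2 levels were 9.05 ± 0.091 and 9.18 ± 0.074, again with overlapping spots. Its log2 ratio was 0.12 ± 0.12, about the size of the spread over spots. Across the 17 settings it ran from -0.029, with the GC trend removed, to 1.499 (2.83-fold), without normalization. It passed 2-fold in 3 settings, the others being 1.29 when centred on the median of all miRNA probes and 1.28 when scaled by the 5S ribosomal RNA probes. Its seed is that of miR-1a-3p, whose probe has 18 of 22 bases in common, and how far either probe reads the other strand was not tested. The other arm, miR-206-5p, and the 2 probes for the 5p arms of miR-1a were at background on both arrays.

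miR-133a-3p, a guide strand made with miR-1 and also reported in vascular smooth muscle, was higher in the MCT library but short of 2-fold. Its spots were 1034, 1089.8 and 1038 in untreated and 3247, 3547 and 3442 in MCT lung. The normalized spots did not overlap, and the log2 ratio was 0.64 ± 0.080, from 10.52 ± 0.031 to 11.16 ± 0.074. This was the 41st highest ratio of the 409 detected miRNAs. Of all detected miRNAs, 135 (33.0%) had MCT spots wholly above the untreated ones after normalization and 150 (36.7%) wholly below, so spots that stand apart are common on these arrays.

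miR-133b-3p, the skeletal muscle form, had spots of 762, 826 and 764 in untreated and 2767, 3101 and 2950.3 in MCT lung. All MCT spots were above all untreated spots, before and after normalization. The log2 level was 10.16 ± 0.066 in untreated and 10.96 ± 0.057 in MCT lung, a log2 ratio of 0.79 ± 0.087. The ratios of miR-133a-3p and miR-133b-3p differed by less than the sum of their SDs, and with 21 shared positions they are not independent readings. Both ratios were above 0 in all 17 alternative settings, from 0.25 to 1.67 for miR-133a-3p and from 0.46 to 1.88 for miR-133b-3p. Both passed 2-fold in 4 settings, namely without normalization, with either centring on all miRNA probes, and scaled by the 5S probes.

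miR-133b-5p, the strand opposite miR-133b-3p in the hairpin, was lower in the MCT library. Its spots read 344, 313 and 350.2 in untreated and 355, 404 and 396 in MCT lung. The raw intensities thus differed little, while the background around these spots, the median of dim neighbouring spots, was 91.8 for untreated and 215 for MCT. Over this local background the mean signal was 244 in untreated and 169 in MCT lung, 1.44-fold lower before any scaling between the arrays. The MCT spots were near the detection limit of their array, at 1.25 to 1.42 times it, and the untreated spots at 2.70 to 3.01 times theirs. After normalization the log2 level was 8.93 ± 0.12 in untreated and 7.60 ± 0.11 in MCT lung, and no spots overlapped. The log2 ratio was -1.33 ± 0.16, or 2.51-fold lower, the 4th lowest of 409. Over the 17 alternative settings this rank ran from 2nd to 12th lowest.

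With the median of the empty spots subtracted, the ratio of miR-133b-5p was lowest, at -2.06. The ratio was below 0 in all 17 alternative settings and past 2-fold in 13. It was -0.29 without normalization, -0.50 when centred on the median of all miRNA probes, -0.84 when centred on their 75th percentile and -0.51 with the 5S probes as the scale. The first of these settings moved the median of all detected miRNAs by 0.75, the others by 0.54, 0.20 and 0.53. Among the 13, centring on the median or the 75th percentile of miRNAs detected on both arrays gave -1.71 and -1.34. These centrings moved the median of all detected miRNAs by -0.67 and -0.30. Set against that median, the ratio was -0.995, short of 2-fold, in these centrings and in the settings short of 2-fold above. This is a single value, because all of these settings differ only by a constant per array. In the authors' deposited table the processed intensity of miR-133b-5p was 385 in untreated and 108 in MCT lung.

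**Figure D2:**
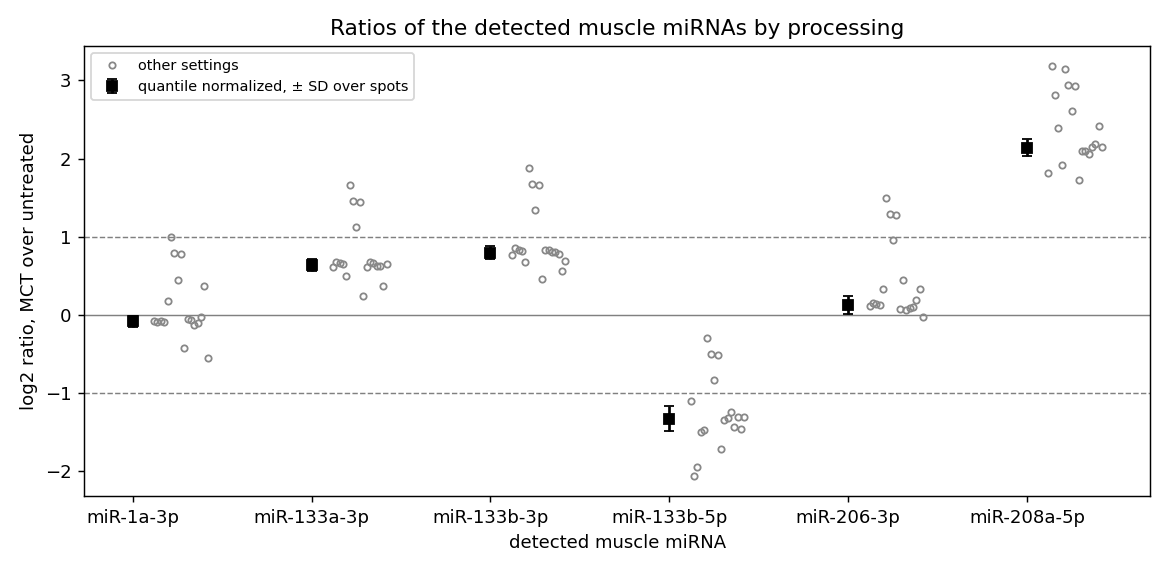
Log2 ratio of MCT over untreated lung for the 6 detected muscle miRNAs; black squares are the quantile-normalized values ± SD over spots, open circles the 17 alternative settings, and dashed lines mark 2-fold. miR-208a-5p lies above 2-fold in all settings, miR-133b-5p lies below 0 in all, and miR-1a-3p lies on both sides of 0.

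The ratios of the miR-133b arms thus had opposite signs, with a difference of -2.12 ± 0.18 on the log2 scale (5p minus 3p), or 4.36-fold. On the array 421 hairpins had a probe for each arm, and in 59 of them both arms were detected on at least 1 array. Across these 59 the median size of the difference between arms was 0.36, the 90th percentile was 0.89, and 3 hairpins had arms more than 2-fold apart. miR-133b ranked 1st by size, also among the 42 hairpins with both arms detected on both arrays, ahead of miR-223 (1.17 ± 0.28, 5p minus 3p), a myeloid hairpin, miR-125a (1.07 ± 0.31), miR-99b (0.97 ± 1.90) and miR-3084 (-0.94 ± 0.32). Arms on opposite sides of 0 were frequent, in 29 of the 59 hairpins, but miR-133b was the 1 hairpin with an arm past 2-fold and the other arm on the far side of 0. In every one of the 17 alternative settings its difference was the lowest of the 59, between -2.92 and -1.87. Since the difference is taken within each array, it does not change with a linear scaling between arrays. The settings without normalization, with a centring or with the 5S scale thus gave the same -2.17 and count as 1 reading. No replicate library bears on it, and the hairpin was picked with this discordance known.

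**Figure D3:**
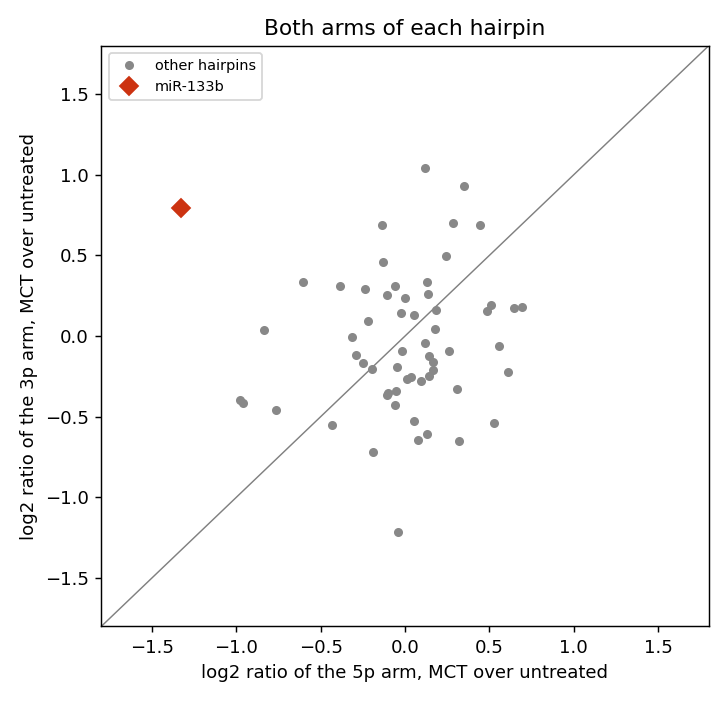
Log2 ratio of MCT over untreated lung for the 5p arm (horizontal) and the 3p arm (vertical) of the 59 hairpins with both arms detected; the line marks equal ratios. miR-133b (red diamond), at -1.33 for the 5p and 0.79 for the 3p arm, lies farthest from the line.

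The probe for miR-133b-5p has 18 of 21 positions in common with miR-133a-5p, which read 86.4, 90.1 and 91.4 in untreated and 197, 217 and 215 in MCT lung, at background on both. The 5p probes of the miR-133 hairpins thus differed in detection, whereas their 3p probes were alike. For the miR-133a hairpin no difference between arms can be given, because the 5p arm was below the limit on both arrays.

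miR-208a-5p had the largest ratio of any detected miRNA. It is the strand opposite miR-208a-3p, the cardiac guide that represses myostatin and supports the switch of myosin isoforms under stress. The spots of miR-208a-5p were 149.7, 161 and 164 in untreated and 1376, 1362 and 1335 in MCT lung. All untreated spots were between 1.29 and 1.41 times the detection limit of their array, and all MCT spots between 4.70 and 4.84 times theirs. The log2 level was 7.46 ± 0.10 in untreated and 9.60 ± 0.029 in MCT lung, and the log2 ratio of 2.14 ± 0.11 corresponds to 4.39-fold. Its ratio ranked 1st of the 409 in 16 of the 17 alternative settings and 2nd with the median of the empty spots subtracted. The settings without normalization, with a centring or with the 5S scale differ by a constant per array, so they share the same ranking.

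The size of this difference depended on the treatment of the background and on the scaling between arrays. Over the local background of 94.9 in untreated and 209 in MCT lung, the mean signal of miR-208a-5p was 63.1 against 1149. This is 18.2-fold before any scaling between the arrays, of which the MCT array was the brighter. With a local background and quantile normalization the log2 ratio was 2.81. Across the 17 settings the log2 ratio ran from 1.73, when centred on the median of miRNAs detected on both arrays, to 3.18, with the median of the empty spots subtracted, or from 3.32-fold to 9.06-fold. It was above 2-fold in all of them. The authors' deposited table gave miR-208a-5p a processed intensity of 97.8 in untreated and 742 in MCT lung.

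Its opposite arm, miR-208a-3p, read 85.2, 88.3 and 86.7 in untreated and 187, 189.7 and 183 in MCT lung, under the empty-spot limit on both arrays. Of the miR-208a hairpin, the probe for the 5p strand was thus the one detected in both libraries. No ratio between the libraries can be given for the 3p arm. miR-208b-3p, with 84.6, 90.7 and 91.1 in untreated and 205, 207.6 and 199 in MCT lung, and miR-499-5p, with 91.3, 78.9 and 97.3 against 216, 203 and 207, were likewise at background. The opposite strands miR-208b-5p and miR-499-3p were not detected either. In the authors' deposited table the values of miR-208a-3p and miR-208b-3p were both 0 in untreated and both 0.06 in MCT lung.

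On the chip the 3 spots of a miRNA lie in the same row in different columns, with those of miR-208a-3p in the row before miR-208a-5p and those of miR-208b-3p in the row after it, in the same columns. These adjoining spots were at background on both arrays, so the MCT signal of miR-208a-5p was not seen in the adjoining rows of its columns. Spots beside it in the same row were not examined. The 3 rows around miR-133b-5p held the bright miR-133b-3p on one side and the dim miR-134-3p on the other, the latter with spots of 205, 233 and 230.0 on the MCT array. Of the other targets on the array, the one with the most positions in common with miR-208a-5p was miR-208b-5p, with 16 of 22 positions and the same seed, and its mean intensity was 92.2 in untreated and 209 in MCT lung. The longest run of bases that miR-208a-5p shared with any other target was 8, with miR-3095-3p, whose log2 ratio was -0.37, and with miR-344d-3-5p, which was not detected. Whether the probe reads an RNA other than an array target was not tested.

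**Figure D4:**
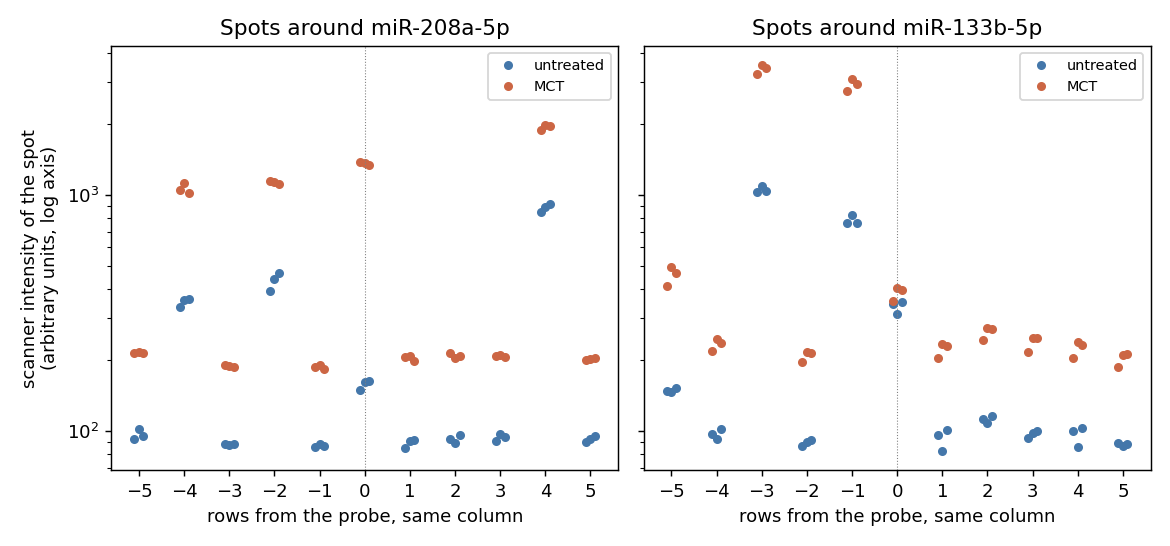
Scanner intensity (arbitrary units, log axis) of spots up to 5 rows before and after miR-208a-5p (left) and miR-133b-5p (right) in the same chip columns, for the untreated (blue) and MCT (orange) arrays and each of the 3 repeat spots. The spots next to miR-208a-5p lie at background on both arrays, and miR-133b-5p is the position where both arrays read nearly alike.

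Base composition moved with the ratio over the arrays and is given here for that reason. Among the 310 miRNAs detected on both arrays, the median log2 ratio was 0.039 in the 54 with a GC content up to 40%, 0.14 in the 132 from there to 50%, -0.061 in the 64 up to 60% and -0.33 in the 60 above. miR-208a-5p, miR-133b-5p and miR-133a-3p all had a GC content of 54.5%, and had ratios of 2.14, -1.33 and 0.64. With the GC trend removed they were 2.15, -1.32 and 0.65, and miR-133b-3p at 50% GC had 0.69. The ratio of miR-1a-3p, at 27.3% GC, moved to -0.55.

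**Figure D5:**
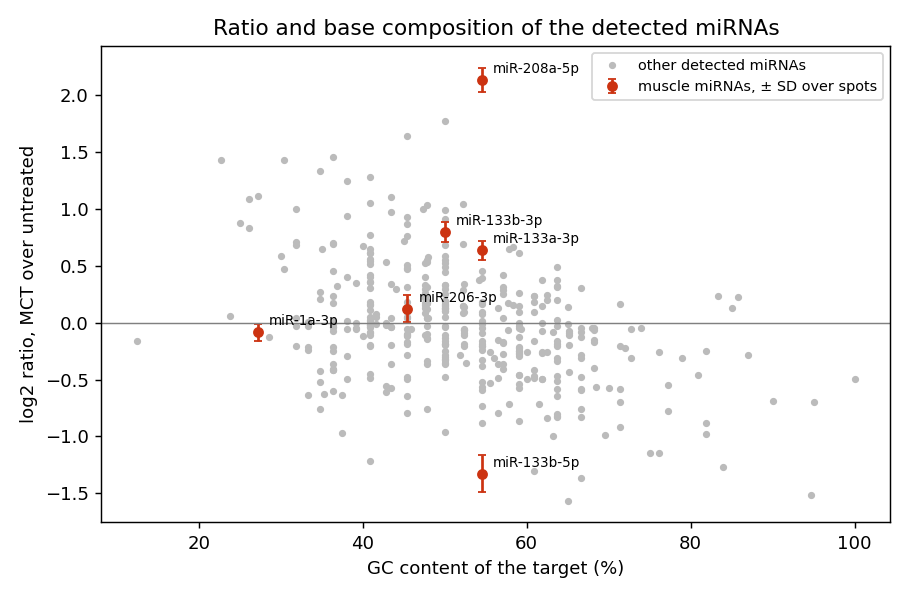
Log2 ratio of MCT over untreated lung against the GC content of the target (%) for the 409 miRNAs detected on either array (grey) with the 6 muscle miRNAs in red, ± SD over spots. miR-208a-5p, miR-133a-3p and miR-133b-5p share a GC content of 54.5% and lie at 2.14, 0.64 and -1.33.

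A list of 13 further probes for striated muscle, made up of opposite arms, miR-1b, the miR-486 and the miR-378 strands, had 6 detected members, of which 0 were called higher and 0 lower. Their median log2 ratio was -0.049, beside -0.044 for all detected miRNAs. miR-378-3p, from an intron of the metabolic coactivator gene Ppargc1b, had -0.090 ± 0.069, miR-378-5p 0.26 ± 0.071 and miR-378b -0.36 ± 0.063. miR-486-3p, from the muscle gene Ank1 and also an erythroid miRNA, had 0.00080 ± 0.084. The probes named miR-3107-5p and miR-3107-3p, listed with miR-486 as names for a copy of it, had -0.31 ± 0.047 and -0.0076 ± 0.12. The 7 that were not detected were the opposite arms of miR-1a, miR-206, miR-208b and miR-499 and both arms of miR-1b.

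Markers of other cell types that share or surround muscle miRNAs differed as follows, and their part in the values above was not tested. Of 7 smooth muscle miRNAs 6 were detected, 2 were called higher, miR-100-5p at 1.77 ± 0.094 and miR-221-3p, and the median log2 ratio was 0.52. miR-145-5p, the brightest of them, had 0.28 ± 0.053, and miR-145-3p had 0.70 ± 0.089. The value of miR-221-3p, 1.04 ± 1.54, is smaller than its spread over spots. Of the 6 epithelial miRNAs 0 were called higher and 0 lower, with a median of 0.49. The largest ratio among them was that of miR-429-3p at 0.77 ± 0.017, and the brightest, miR-200c-3p, had -0.039 ± 0.060. The 5 endothelial miRNAs had a median of 0.038 and 1 called higher, miR-10b-5p at 1.11 ± 0.20, while miR-126-3p, the brightest, had -0.12 ± 0.12. Of the white blood cell miRNAs 3 of 5 were detected, with miR-223-3p called lower at -1.21 ± 0.21 and miR-150-5p, the brightest, at 0.17 ± 0.077. The single detected red blood cell miRNA, miR-451, had -0.038 ± 0.035.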

How the data were processed

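Lung RNA, 2 µg per sample, was poly(A)-tailed, tagged and hybridised to a Cy3 microfluidic chip by a service provider, per the labels' protocols. The deposited scanner tables hold the median intensity of each of 3968 spots on a linear scale, not background-subtracted, since empty spots read 101 and 253 at the median. The authors' series table holds 1 processed intensity per probe. From its values the background was removed, by steps not given in the sources used here. Intensities were corrected with normexp (offset 50) in limma 3.58.1 under R 4.3.3 on the spot signals, log2-transformed and quantile normalized over the miRNA spots after control spots were left out, and 3 spots were averaged. Local background was the median of dim spots within 5 rows and 3 columns. Python 3.11.15 with statsmodels 0.14.6 was used for other steps. The arrays, 1 per group, limit the precision. The steps were tested on simulated arrays, with the background of the miRNA spots drawn from the empty spots. On the MCT array the median miRNA spot was dimmer than the median empty spot (226 against 253), which the simulation did not reproduce.

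The members, lists, calls and alternatives were chosen with earlier results of these data known. All 10 members were named, with every probe of the striated muscle list, up to 3 detected members with the largest ratios and the brightest of each other list, the 3 detected miRNAs nearest in level to each called member and the 5 hairpins with the largest arm differences. Other miRNAs were named as chip neighbours or similar targets after their values were seen. Alternatives covered background correction, offset, normalization, repeat spots, the authors' values with a pseudocount of 50, GC content, detection and threshold, and 2 centrings on miRNAs detected on both arrays were added after the data were seen. Probe names follow the array's design and can be old.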

Additional observations from a re-analysis of the deposited data

How the results depend on the processing

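The log2 ratios of miR-133a-3p, miR-133b-3p, miR-133b-5p and miR-208a-5p kept their sign in all 17 alternatives that give a ratio, and miR-1a-3p and miR-206-3p did not. Members called higher numbered 4 without normalization, 4 when centred on the median, 4 when scaled by 5S probes, 3 when centred on the 75th percentile and 3 at a 1.5-fold threshold, against 1. The members called higher in the first 3 of these settings were miR-133a-3p, miR-133b-3p, miR-206-3p and miR-208a-5p. In the first 4 settings 0 were called lower, against 1, and the cause was not tested. There the ratio of miR-133b-5p minus the median of all detected miRNAs was -0.995, against -1.28. It is the same in these settings because they differ only by a constant per array. Over all miRNAs, against 17 higher and 9 lower, calls were 142 and 0 without normalization, 98 and 0 when centred on the median, 97 and 0 when scaled by 5S probes, 54 and 3 when centred on the 75th percentile, 6 and 132 with the median, or 17 and 43 with the 75th percentile, of miRNAs detected on both arrays set equal, 46 and 38 with the empty-spot median subtracted, 37 and 36 with a local background, 23 and 19 with an offset of 16, 20 and 16 with the authors' values, 8 and 6 with the GC trend removed and 46 (11.2%) and 44 (10.8%) at a 1.5-fold threshold. The arm difference of miR-133b was -1.87 without background correction, -2.32 with an offset of 16, -2.78 with a local background and -2.92 with the empty-spot median subtracted. For miR-208a no arm difference was computed, since the 3p arm was below background on both arrays. Leaving out repeat spot 1, 2 or 3 changed no call of a member. No paired analysis was possible because each group has 1 array. The untreated spots of miR-208a-5p lay between 1.29 and 1.41 times the detection limit, and its ratio ran from 1.73 to 3.18 over background and scaling settings, with 3.15 without normalization. The MCT spots of miR-133b-5p lay between 1.25 and 1.42 times the detection limit, and its ratio ran from -2.06 to -0.29.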

Other observations

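Over both arrays, the 3 detected miRNAs nearest to miR-208a-5p in their pair of log2 levels were miR-335-5p, which lies within the imprinted gene Mest, with a log2 ratio of 1.44 ± 0.22, miR-466b-3p with 1.45 ± 0.24 and miR-466a-3p with 1.33 ± 0.17. Those nearest to miR-133b-5p were miR-328-5p with -0.98 ± 0.044, miR-671-5p with -0.99 ± 0.089 and miR-5132 with -0.92 ± 0.074. The distances in level were 0.51 to 0.66 for miR-208a-5p and 0.25 to 0.49 for miR-133b-5p on the log2 scale. The ratio is the difference of the 2 levels used for this choice, so likeness in ratio follows from the choice. Likeness over 2 arrays is a description only.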
